A study of Rattus norvegicus with 18 samples.

Results

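Marker genes of the alveolar macrophage were described in the lungs of rats that inhaled cigarette smoke for 13 weeks. The list held 10 genes (Gpnmb, Cd68, Lgals3, Naaa, Marco, Msr1, Adgre1, Ms4a7, Lpl and Cd36), and a gene was included where a probe set was annotated to its symbol alone. This gave 8 genes, each with 1 probe set, of 13810 genes with a single symbol on the arrays. Of the 8, 6 lay on array type A (Gpnmb, Cd68, Lgals3, Naaa, Lpl and Cd36) and 2 on array type B (Adgre1 and Ms4a7). Marco and Msr1 were not analysed here, and 1 further probe set was left out because it is annotated to Cd36 together with another symbol.

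Alveolar macrophages live in the air spaces, where they take up inhaled particles, dead cells and spent surfactant and break them down in lysosomes. They therefore express scavenger receptors, lysosomal membrane proteins and enzymes, and genes for the uptake and turnover of fat. Smokers' lungs are known for macrophages that are more numerous and laden with pigment and lipid. Several of these genes are not confined to macrophages: Lgals3 is also made by epithelium, Cd36 and Lpl also by fat and muscle, and Cd36 by capillary endothelium as well.

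Male Sprague-Dawley rats were exposed nose-only for 2 h per day on 5 days per week to mainstream smoke of the 2R4F reference cigarette, with total particulate matter (TPM) at 300 or 600 µg/l, or to sham. Recovery before the lungs were sampled lasted 2, 6 or 20 h. Each of these 9 conditions was measured with 1 array of type A and 1 of type B, so the 18 samples hold no replicate of any condition, and how many animals contributed to an array is not stated. Exposures were therefore compared over the 3 recovery times. Their p-values rest on the spread left after exposure and recovery time are fitted. That spread mixes differences between arrays with any change of the exposure effect between times. The spread between animals cannot be read from it.

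The lung markers of the tissue were bright on every array. Sftpc, the surfactant protein of type 2 cells, read 15855 to 18565.7, Scgb1a1 of club cells 13321.1 to 15904.2, and Ager of type 1 cells 7818.8 to 9106.4. The fat markers Plin1 (58.7 to 86.4) and Lep (5.2 to 22.9) stayed below 183.8, the signal used on type A to set dim probe sets aside. The fat markers Cfd (151.3 to 252.8) and, on type B, Adipoq (183.5 to 339.3, against 238.7 for that type) lay on either side of it. The median signal ranged from 263.6 to 278.5 among type A arrays, and from 315.3 to 338.7 among those of type B. Among 36 pairs of type B arrays, sham at 2 h and 300 µg/l at 2 h stood apart. Their deviations from each probe set's mean over the type B arrays correlated at r = 0.56, while the next pair reached 0.12. Exposure and recovery time were not removed from these deviations, and both arrays are of 2 h. That sham array touches Adgre1 and Ms4a7 directly, and their results are given with and without it. The 4 smoke arrays at 20 h carry a further label that reads sham, against their titles.

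Promoters are shown first for Gpnmb and Cd68, because these genes changed most and because, of the 7 listed genes with a promoter in the reference table, only these held any of 4 motifs searched in the 250 bases before the gene's start, on both strands. Sequences are from RefSeq, rat build GRCr8, printed 5′ to 3′ on the gene's strand, with motif matches in capitals. Gpnmb lies on the plus strand (chr4:79340878-79341127) and Cd68 on the minus strand (chr10:54882442-54882691).
Gpnmb: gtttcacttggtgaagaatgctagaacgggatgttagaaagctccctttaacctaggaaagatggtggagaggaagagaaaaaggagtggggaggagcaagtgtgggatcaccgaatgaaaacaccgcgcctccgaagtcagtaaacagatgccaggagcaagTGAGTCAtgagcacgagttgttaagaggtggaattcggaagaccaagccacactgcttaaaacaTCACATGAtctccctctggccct
Cd68: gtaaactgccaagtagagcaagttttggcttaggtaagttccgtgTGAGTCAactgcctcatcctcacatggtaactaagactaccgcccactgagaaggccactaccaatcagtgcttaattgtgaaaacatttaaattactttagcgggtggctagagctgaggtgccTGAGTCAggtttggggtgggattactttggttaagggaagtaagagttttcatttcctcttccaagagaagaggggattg

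The Gpnmb promoter held the M-box TCATGTGA, the element bound by Mitf and its relatives, as its reverse complement TCACATGA 23 to 16 bases before the start. It also held the AP-1 motif TGACTCA, as TGAGTCA, 87 to 81 bases before the start. The Cd68 promoter held AP-1 in the same orientation at 205 to 199 and at 80 to 74 bases. Of 33469 rat promoters of the same length, 0.977% held the M-box and 4.05% the AP-1 motif. The other motifs searched were the lysosomal gene element TCACGTGA, present in 0.657% of promoters, and the PU.1 motif GAGGAAGT, present in 2.04%. Neither had a match in the 7 promoters. These matches describe the letters of the window only.

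Most of the macrophage markers were higher in smoke-exposed lungs than in sham lungs. At 600 µg/l, 5 of the 8 genes passed the test against sham, all higher (Gpnmb, Cd68, Naaa, Lgals3 and Lpl), with folds from 1.55 to 2.46. Of all 19638 probe sets tested, 0.428% were called higher. At 300 µg/l, 3 of the 8 passed (Gpnmb, Cd68 and Naaa), against 0.0407% of all probe sets. The median log2 change of the 8 genes was 0.69 at 600 µg/l and 0.48 at 300 µg/l, beside -0.0075 and -0.0020 over all probe sets. The markers were chosen with earlier results of these data known, so setting them against all probe sets is a description. Folds and log2 changes are of signal + 50, so they understate changes of dim genes, and the test was limma's with Benjamini-Hochberg adjustment over all probe sets and a threshold of 0.05. In bulk lung, more cells of a type and more RNA per cell cannot be told apart.

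**Figure D1:**
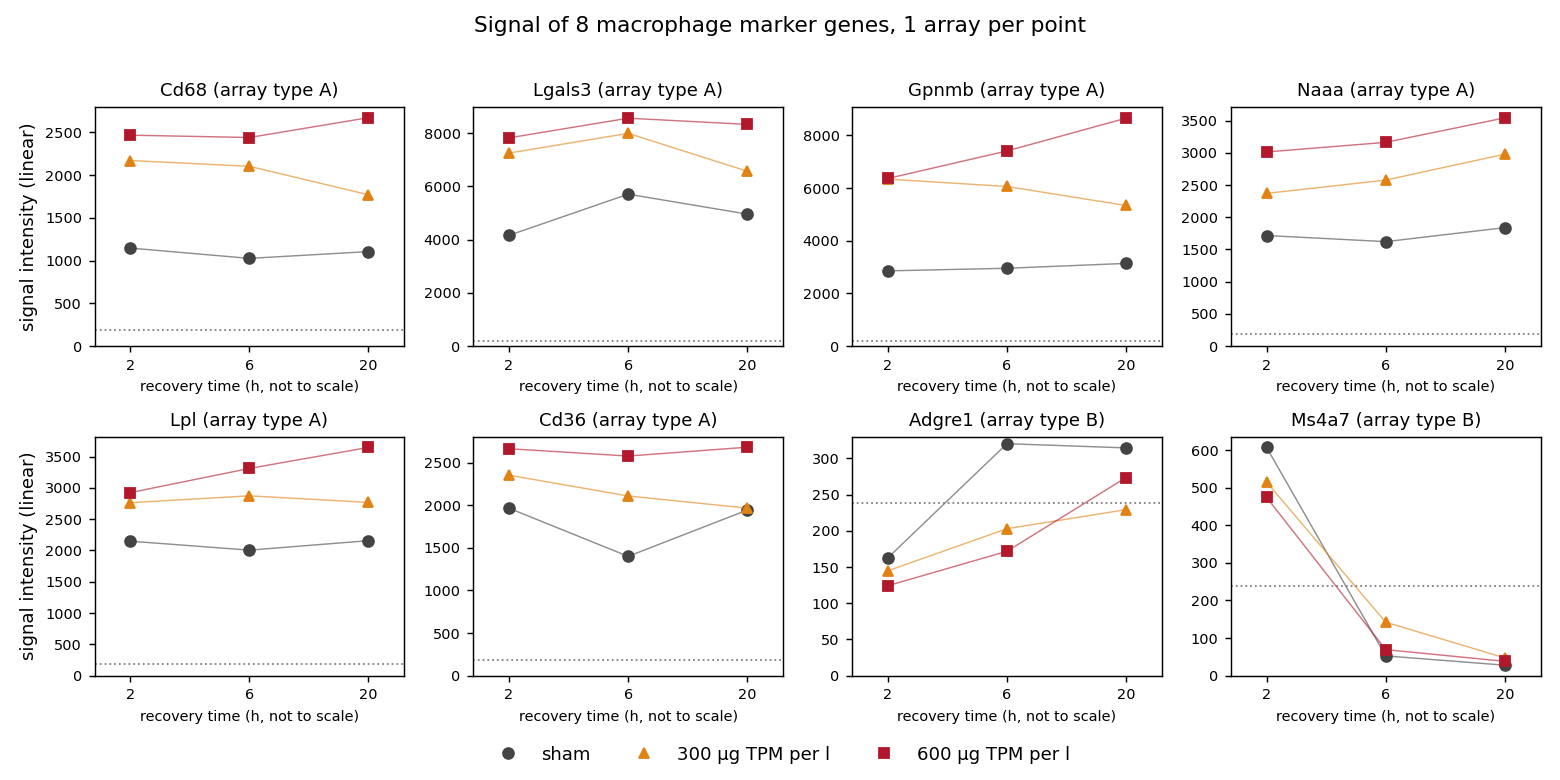
Signal intensity on a linear scale (vertical axis, from 0) of the 8 genes on each of the 9 arrays of their type, by recovery time in hours (horizontal axis, not to scale). Circles are sham, triangles 300 and squares 600 µg TPM per l, lines join arrays of 1 exposure, and the dotted line is the signal used to set dim probe sets aside (183.8 on type A, 238.7 on type B). The 6 genes on type A stand in the order sham, 300, 600 at every time, whereas Adgre1 is dim and Ms4a7 is high at 2 h in all exposures.

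Of the lysosomal and phagocytic genes, Cd68, the heavily glycosylated lysosomal membrane protein used to stain macrophages, had sham signals of 1146.8, 1026.2 and 1105.5 at 2, 6 and 20 h. At 300 µg/l it read 2171.1, 2103.6 and 1770.3, and at 600 µg/l 2467.7, 2440.3 and 2672.4. The 3 exposures did not overlap. Cd68 rose 2.26-fold at 600 µg/l (log2 change 1.17, SE 0.09, adjusted p 0.00052), which was rank 7 by p-value among the 19638 probe sets. The lower level gave a 1.80-fold rise (log2 change 0.85, SE 0.09, adjusted p 0.010).

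Gpnmb encodes a glycoprotein of lysosomes and melanosomes that is found in lipid-laden macrophages. Its sham signals were 2857.0, 2955.5 and 3140.2, and those at 300 µg/l were 6342.1, 6061.1 and 5340.3. At 600 µg/l it read 6366.5, 7410.9 and 8655.6. All smoke arrays lay above all sham arrays, but at 2 h both smoke levels gave nearly the same signal. Gpnmb had the largest change of the 8 genes, 2.46-fold at 600 µg/l (log2 change 1.30, SE 0.11, 95% interval 1.07 to 1.54, adjusted p 0.00052) and 1.96-fold at 300 µg/l (log2 change 0.97, SE 0.11, adjusted p 0.010).

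Naaa, a lysosomal acid amidase that cleaves palmitoylethanolamide, read 1716.8, 1621.5 and 1838.7 in sham lungs. The signals at 300 µg/l were 2370.7, 2576.9 and 2979.3, and at 600 µg/l 3014.0, 3162.9 and 3543.2. The exposures did not overlap, although the highest 300 µg/l array came close to the lowest 600 µg/l array. Naaa rose 1.85-fold at 600 µg/l (log2 change 0.89, SE 0.07, adjusted p 0.00052) and 1.51-fold at 300 µg/l (log2 change 0.60, SE 0.07, adjusted p 0.022).

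Lgals3, or galectin-3, is a sugar-binding protein that gathers on damaged lysosomes and is secreted by macrophages. It read 4160.3, 5705.5 and 4956.2 in sham, 7249.4, 7990.1 and 6566.9 at 300 µg/l, and 7820.7, 8559.0 and 8326.3 at 600 µg/l. Smoke and sham arrays did not overlap, while the smoke levels overlapped each other. Lgals3 rose 1.67-fold at 600 µg/l (log2 change 0.74, SE 0.08, adjusted p 0.0034). At 300 µg/l its log2 difference of 0.56 (SE 0.08) did not pass (adjusted p 0.062).

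The calls at 600 µg/l for Cd68, Gpnmb, Naaa and Lgals3 were made in 24 of 24 alternative settings. For these type A genes, leaving out only a type B array could alter a call solely through the adjustment over all probe sets. The calls at 300 µg/l rested on more of the arrays. Gpnmb and Cd68 lost the call without sham at 2 h, sham at 6 h, 300 µg/l at 2 h or 300 µg/l at 6 h (adjusted p 0.076 to 0.11), and Naaa was called in 12 of 24 settings. Naaa lost it without any single sham or 300 µg/l condition (adjusted p 0.071 to 0.17) and without 600 µg/l at 2 h (adjusted p 0.059).

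Of the lipid genes, Lpl, the lipoprotein lipase that frees fatty acids from triglyceride, read 2148.8, 2005.7 and 2156.9 in sham lungs. It read 2764.1, 2873.8 and 2768.1 at 300 µg/l, and 2925.0, 3311.5 and 3647.4 at 600 µg/l. The exposures did not overlap. Lpl rose 1.55-fold at 600 µg/l (log2 change 0.63, SE 0.08, adjusted p 0.010). That call was lost without sham at 6 h (adjusted p 0.065), sham at 20 h (0.063), 600 µg/l at 6 h (0.057) or 600 µg/l at 20 h (0.071), with limma log2 changes of 0.56 to 0.62. It was also lost without all 20 h conditions, which include the arrays with the conflicting label (log2 change 0.57, adjusted p 0.10). The log2 difference of 0.41 (SE 0.08) at 300 µg/l had an adjusted p of 0.22.

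Cd36, the scavenger receptor for oxidised lipoproteins and a fatty acid transporter, read 1964.5, 1400.4 and 1943.5 in sham lungs. The signals were 2352.5, 2108.8 and 1966.6 at 300 µg/l, and 2663.3, 2577.7 and 2681.2 at 600 µg/l. The 600 µg/l arrays were close together and above all others, while 300 µg/l at 20 h was nearly at the level of its sham. The log2 difference at 600 µg/l was 0.58 (SE 0.11, 95% interval 0.34 to 0.82), and it missed the threshold narrowly (adjusted p 0.0503). It was called in 5 of 24 alternative settings (adjusted p 0.028 to 0.20 over all of them), among them without the type B sham array at 2 h (adjusted p 0.048), which enters only through the joint adjustment. The log2 difference at 300 µg/l was 0.28 (adjusted p 0.79).

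Markers of other cells that can make Lpl or Cd36 are given beside them, and their part in these values was not tested. None of the 10 measured endothelial genes passed at 600 µg/l, 1 of the 10 was above 0 and their median log2 change was -0.24. Their summed signal was 30902 to 35365 in sham and 28690 to 30373 at 600 µg/l. The 2 measured fat genes, of 7 listed, summed to 409 to 563 in sham and 356 to 578 at 600 µg/l, and the 4 measured heart muscle genes, of 8 listed, to 1567 to 2124 and 1012 to 1694. None of these fat or heart genes passed.

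The markers on type B, Adgre1 and Ms4a7, did not pass against sham at either smoke level. Adgre1, the F4/80 antigen, read 162.7, 320.3 and 314.5 in sham lungs, 144.8, 202.9 and 229.2 at 300 µg/l, and 124.2, 171.7 and 273.5 at 600 µg/l. It was dim, at or above the type's filter of 238.7 on only 3 of 9 arrays (sham at 6 h, sham at 20 h and 600 µg/l at 20 h). It thus entered the test largely through sham, where it was high, so its values between exposures are a description. At each time its sham array was the highest, an order whose share over all probe sets was not counted. Its log2 difference at 600 µg/l was -0.40 (95% interval -0.91 to 0.11, adjusted p 0.61), and -0.48 without the type B sham array at 2 h (adjusted p 0.63).

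Ms4a7, a tetraspan membrane protein of macrophages, read 607.0, 52.5 and 27.8 in sham lungs, 514.8, 142.2 and 47.2 at 300 µg/l, and 474.0, 69.2 and 38.1 at 600 µg/l. The 2 h array was the highest in each exposure. The log2 difference at 600 µg/l was 0.024 with a wide 95% interval of -0.76 to 0.81 (adjusted p 0.99), and 0.25 without the type B sham array at 2 h (adjusted p 0.92). Neither interval nor p shows that smoke left this gene alone.

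**Figure D2:**
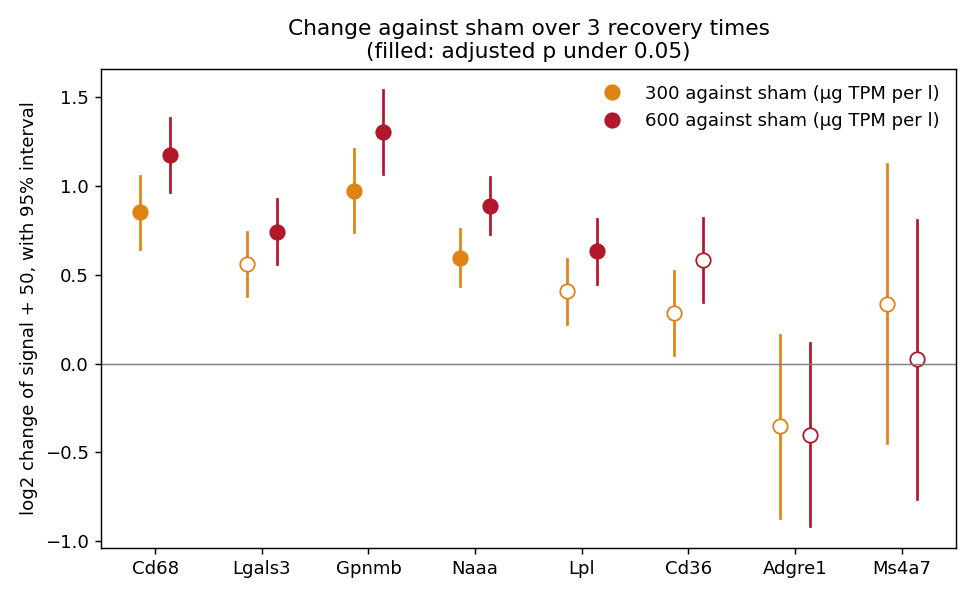
Log2 change of signal + 50 against sham (vertical axis) with its 95% interval for each of the 8 genes (horizontal axis), from limma over 3 recovery times, at 300 (orange) and 600 µg TPM per l (red). Filled points have an adjusted p under 0.05: 5 genes at 600 µg/l and 3 at 300 µg/l, with Cd36 at 600 µg/l just outside at 0.0503 and wide intervals for Adgre1 and Ms4a7.

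A slope over sham, 300 and 600 µg/l, counted as 0, 1 and 2 steps, passed for 6 of the 8 genes, where 0.484% of all probe sets had a rising slope that passed. The log2 change per step was 0.65 for Gpnmb (SE 0.07, adjusted p 0.0031), 0.59 for Cd68 (adjusted p 0.0017), 0.44 for Naaa (adjusted p 0.0012) and 0.37 for Lgals3 (adjusted p 0.010). For Lpl it was 0.32 (SE 0.04, adjusted p 0.0093) and for Cd36 0.29 (SE 0.05, adjusted p 0.033). Without the 20 h conditions, which include the arrays with the conflicting label, 2 of the 6 calls were left (Cd68 and Naaa), and Gpnmb had an adjusted p of 0.061. Removing sham at 6 h or sham at 20 h left 3 of the 6 calls, with Lgals3, Lpl and Cd36 at adjusted p 0.052 to 0.11. Cd36 lost its call in 9 of 23 settings, also without sham at 2 h or any single 600 µg/l condition (adjusted p 0.068 to 0.12).

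The same 6 genes held the order sham, 300, 600 at all 3 recovery times, an order that 1.21% of all probe sets showed. For these genes all 3 arrays at 600 µg/l, and all 3 at 300 µg/l, lay above all 3 sham arrays. Among all probe sets 6.98% did so at 600 µg/l and 4.12% at 300 µg/l. Gpnmb, Cd68, Naaa, Lpl and Cd36 also had all 3 arrays at 600 µg/l above all 3 at 300 µg/l. The share of all probe sets with that separation of the smoke levels was not counted, so it is a description. The order sham, 300, 600 rests on small gaps in places: after quantile normalization Gpnmb held it at 2 of 3 times, and after median scaling Cd36 did. After median scaling the 300 µg/l arrays of Cd36 also no longer all lay above its sham arrays. As deposited, its lowest signal at 300 µg/l was 1966.6 and its highest in sham 1964.5.

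The step from 300 to 600 µg/l was smaller than that from sham to 300 µg/l for Gpnmb, Cd68, Lgals3, Naaa and Lpl. The change at 300 µg/l was 75.4% of that at 600 µg/l for Lgals3, 74.8% for Gpnmb, 72.4% for Cd68, 67.1% for Naaa, 64.4% for Lpl and 48.5% for Cd36, on the log2 scale. Tested directly, 600 against 300 µg/l was called for none of the 8 genes by limma, and for 0.0204% of all probe sets in the higher direction. An unadjusted p under 0.05 was found for 6 of the 8 and for 992 of all 19638 probe sets. The log2 differences were 0.33 for Gpnmb (95% interval 0.093 to 0.56, adjusted p 0.92), 0.32 for Cd68 (0.12 to 0.53, adjusted p 0.86) and 0.29 for Naaa (0.13 to 0.45, adjusted p 0.80). So a difference between the smoke levels was not established after adjustment, and the intervals lay above 0.

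The gap between the smoke levels was not the same at each recovery time. For Gpnmb the 600 µg/l array exceeded the 300 µg/l array by a log2 difference of 0.0055 at 2 h, 0.29 at 6 h and 0.69 at 20 h. For Cd68 the corresponding differences were 0.18, 0.21 and 0.58. These are single pairs of arrays with no replicate check. Against sham, the difference at 600 µg/l was 1.14, 1.31 and 1.45 for Gpnmb and 1.07, 1.21 and 1.24 for Cd68 at 2, 6 and 20 h. It was 0.79, 0.94 and 0.93 for Naaa, 0.90, 0.58 and 0.74 for Lgals3, 0.44, 0.71 and 0.74 for Lpl, and 0.43, 0.86 and 0.45 for Cd36. No gene of the 6 had a time at which its 600 µg/l array fell to sham.

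Whether the smoke effect differed between recovery times was tested with the smoke levels pooled. The error of this test is the gap between the smoke levels at each time, so it is larger for genes that differ between them. None of the 8 genes passed at 6 h against 2 h, with limma differences of -0.44 to 0.83 and a lowest adjusted p of 0.86, and 0 of the 8 had an unadjusted p under 0.05. Of all probe sets 0% passed there, and 1231 had an unadjusted p under 0.05. None of the 8 passed at 20 h against 2 h either, with differences of -0.28 to 0.52, and 0 had an unadjusted p under 0.05. Of all probe sets 0.0102% passed there, and 678 had an unadjusted p under 0.05. The 95% intervals were wide. For Gpnmb they were -0.73 to 0.79 at 6 h and -0.80 to 0.73 at 20 h, each against 2 h. For Lgals3, which had the smallest SE of the 8 genes, they were -0.76 to 0.13 and -0.72 to 0.17. The test therefore does not show that the smoke effect was the same at each time.

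Recovery times were also compared over the 3 exposures. Ms4a7 was at or above the filter of 238.7 on 3 arrays only, those of 2 h, so it entered the test through the group in which it was high and had to differ. Its values are therefore a description, and its call supports nothing further. Its mean signal was 531.93 ± 68.1 at 2 h, 87.97 ± 47.7 at 6 h and 37.7 ± 9.71 at 20 h (SD, n = 3 each). All 3 arrays at 2 h exceeded all 6 later arrays, as in 3.71% of all probe sets. The later arrays were all under the filter, so the size of the fold depends on the constant added to the signal. From 2 to 20 h the fitted log2 difference of Ms4a7 was -2.73 (SE 0.35, 95% interval -3.51 to -1.95, adjusted p 0.035), which is no measure of the size of the fall, while 0.0509% of all probe sets passed in either direction. From 2 to 6 h the log2 difference of -2.12 did not pass (adjusted p 0.11), and 0 of the 8 genes did, beside 0.0153% of all probe sets. An unadjusted p under 0.05 was found there for 2 of the 8 and for 2118 of all 19638 probe sets. From 2 to 20 h it was found for 3 of the 8 (Ms4a7, Adgre1 and Naaa) and for 2247 of all 19638.

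This difference of Ms4a7 was called in 8 of 17 settings (adjusted p 0.016 to 0.24), with log2 changes of -3.45 with 12.5 as the added constant to -1.62 with 200. Without the type B sham array at 2 h the gene no longer passed the filter. When its test was kept, the log2 difference was -2.50 (adjusted p 0.24). Without the type B array of 300 µg/l at 2 h it was -2.92 (adjusted p 0.16), and without that of 600 µg/l at 2 h -2.77 (adjusted p 0.081). Leaving out a 20 h condition also ended the call, for sham (-2.69, adjusted p 0.086), 300 µg/l (-2.68, adjusted p 0.18) and 600 µg/l (-2.81, adjusted p 0.069).

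The other 7 genes did not pass between times. Adgre1 reached the filter of 238.7 on 3 arrays only, none of them of 2 h, so it too entered the test through the later times. Its values between times are therefore a description. The 20 h array was above the 2 h array in all 3 exposures, an order whose share over all probe sets was not counted. The log2 difference of Adgre1 from 2 to 20 h was 0.73 (95% interval 0.22 to 1.24, adjusted p 0.28). It was 0.65 without the type B sham array at 2 h (adjusted p 0.61). Naaa differed by 0.22 (adjusted p 0.30), and Gpnmb, Cd68, Lgals3, Lpl and Cd36 by -0.086 to 0.11, in the same comparison.

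Few genes of the other macrophage lists passed the test, and those that did were higher. The share of all probe sets called higher at 600 µg/l, 0.428%, stands beside each of the counts that follow. That share is over probe sets of both array types, while the counts are over genes. Of 101 probe sets called in either direction, 9 were on type B, so the share for type A alone was larger. These lists too were chosen with earlier results of these data known. Of 22 measured genes of the macrophage surface and identity list, 2 rose at 600 µg/l, none fell and 20 did not pass, with a median log2 change of 0.34. Over 10165 genes the median was -0.0043. Cd14, the co-receptor for lipopolysaccharide, rose by a log2 change of 0.78 (SE 0.12, adjusted p 0.021), and C1qc, a chain of complement C1q, by 0.65 (SE 0.11, adjusted p 0.043). The tetraspanin Cd63 (0.39, adjusted p 0.051) and the receptor adaptor Fcer1g (0.34, adjusted p 0.097) did not pass.

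Of 29 measured lysosome genes 3 rose and 26 did not pass, and the median log2 change was 0.21. Ctsk, cathepsin K, a collagen-degrading protease, rose by 1.73 (adjusted p 0.0032). Ctsd, the aspartic protease cathepsin D, rose by 0.92 (adjusted p 0.00027) and Acp5, tartrate-resistant acid phosphatase, by 0.66 (adjusted p 0.039). Ctsz was at 0.72 (adjusted p 0.063).

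Of 14 measured lipid handling genes only Fabp5, a fatty acid binding protein, passed, with a log2 change of 0.85 (SE 0.10, adjusted p 0.0063), and the list's median was 0.12. Ch25h, which makes 25-hydroxycholesterol, was at 0.93 (adjusted p 0.097), the cholesterol exporter Abcg1 at 0.35 (adjusted p 0.11) and the cholesterol-esterifying enzyme Soat1 at 0.46 (adjusted p 0.16).

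Of 11 measured secreted macrophage products 4 rose, and the median was 0.56. They were the elastase Mmp12 (log2 change 1.51, SE 0.27, adjusted p 0.045), the chemokines Ccl6 (0.56, adjusted p 0.031) and Ccl3 (0.67, adjusted p 0.039), and Il18 (0.50, adjusted p 0.040). At 300 µg/l, where 0.0407% of all probe sets were called higher, 1 lysosome gene and 0 macrophage surface genes passed.

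**Figure D3:**
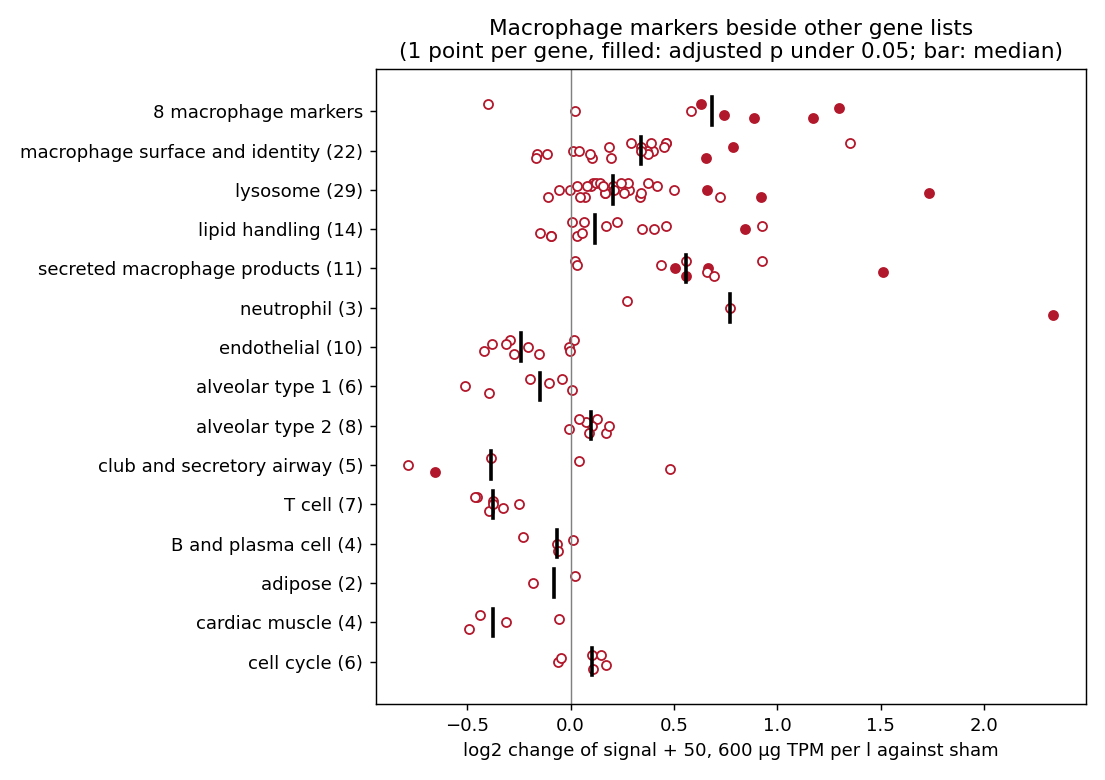
Log2 change of signal + 50 at 600 µg TPM per l against sham (horizontal axis) for each measured gene of the listed groups (vertical axis, number measured in brackets). Each point is 1 gene, filled where the adjusted p from limma was under 0.05, and the bar is the group's median. The 8 macrophage markers have a median of 0.69, the secreted products 0.56, and endothelial (-0.24) and T cell genes (-0.38) lie mostly or wholly below 0.

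Of the neutrophil genes 1 passed at 600 µg/l. Only 3 of 9 listed were measured, with a median log2 change of 0.77, and their summed signal was 1287 to 2209 in sham, 3082 to 4110 at 300 µg/l and 3909 to 8250 at 600 µg/l. S100a9, a calcium-binding protein abundant in neutrophils, rose by 2.33 (SE 0.22, adjusted p 0.0015), while S100a8 (0.77, adjusted p 0.40) and Csf3r (0.27, adjusted p 0.66) did not pass. The part of neutrophils in the changes of the macrophage markers was not tested. Other cell types gave no called rise at 600 µg/l: the 8 type 2 cell genes had a median of 0.098, the 6 type 1 cell genes -0.15, the 7 T cell genes -0.38 with 0 above 0, the 4 B and plasma cell genes -0.065, and the 6 cell cycle genes 0.11. Of 5 airway secretory genes 1 fell (median -0.39), and a single monocyte and dendritic cell gene of 9 listed was measured, at 0.074.

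The genes whose log2 signals followed Cd68 most closely over the 9 type A arrays, among 7304 genes, were Lcn2 (Pearson r = 0.996), Cmbl (0.992) and C3 (0.986). Those nearest to Gpnmb were P4hb (0.987), Lcn2 (0.986) and Cd68 (0.985), and those nearest to Lpl were P4hb, Fabp5 and Vim (0.980, 0.979 and 0.979). The 15 pairs among the 6 type A markers had r of 0.65 to 0.98. With exposure and recovery time removed the range was -0.93 to 0.89, with 10 of 15 pairs above 0. The ends of that range were Gpnmb with Cd68 (0.89) and Lgals3 with Naaa (-0.93). Only 4 residual degrees of freedom were left after that removal, so these r values are imprecise. These r values are descriptions over 9 arrays, 1 per condition, and the genes compared share the same arrays and exposure steps.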

How the data were processed

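The deposited values are the authors' MAS5 signal intensity, not log-transformed, with the tool taken from the submitters' processing notes and its version not given there. Platform annotation, updated through Entrez identifiers, named the probe sets, and titles gave the groups. The values analysed were log2(signal + 50). A probe set was tested when 3 or more of its 9 arrays reached the 40th percentile of the array type (183.8 for A, 238.7 for B), which kept 9901 on A and 9737 on B. Controls (57 per type) were dropped, and the 100 probe sets present on A and B entered through A. All 8 markers passed.

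Each type was fitted separately in limma 3.58.1 (R 4.3.3), using eBayes with a trend on intensity. Tests were two-sided, with Benjamini-Hochberg adjustment over A and B jointly. The exposure model held exposure and recovery time (4 residual degrees of freedom), the slope model dose steps and time (5), and the third model smoke, time and their interaction (3). The spread in the third model is that of 300 against 600 µg/l at a given time. The code was tested on simulated data. Alternatives changed scaling, added constant, filter, trend, adjustment, time term and the arrays used.

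Every marker with a probe set of its symbol alone was named. From other lists at most 4 genes were named, by adjusted p at 600 µg/l, with the brightest probe set standing for a gene. For Gpnmb, Cd68 and Lpl the 3 genes of highest correlation were named. The markers and lists were chosen with earlier results of these data known.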

Additional observations from a re-analysis of the deposited data

How the results depend on the processing

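At 600 µg/l the count of markers called (5) was 4 to 6 over 24 settings; Gpnmb, Cd68, Naaa and Lgals3 were called in 24 and Lpl in 19. The 29 sign changes all concern differences that did not pass. The count of markers called at 300 µg/l (3) was 0 with all probe sets tested and 0 when the intensity trend was dropped, and 0 to 3 when 1 condition was left out. The slope count (6) was 2 without the 20 h conditions and 3 to 6 with 1 condition left out. With 200 as the added constant 1 marker was called at 6 h against 2 h. The call of Ms4a7 at 20 h against 2 h gave a count of 0 with a constant of 12.5, no filter, a 60th percentile filter or no type B sham array at 2 h, and 0 to 1 with 1 condition left out. It was also 0 without any single type B array of 2 h with its probe set kept, a setting chosen after seeing the data. For Ms4a7 the log2 difference at 600 µg/l was -0.035 with a constant of 200, -0.054 without 20 h and -0.17 to 0.069 with 1 condition left out, and its slope was -0.017, -0.027 and -0.11 to 0.068. With 1 condition left out, Adgre1 at 600 against 300 µg/l ranged from -0.12 to 0.075. It was 0.039 without the type B array of 300 µg/l at 2 h. At 6 h against 2 h the ranges were -0.053 to 0.19 (Gpnmb), -0.012 to 0.094 (Naaa) and -0.040 to 0.11 (Lpl). At 20 h against 2 h they were -0.018 to 0.25 (Gpnmb), -0.16 to 0.038 (Cd68), -0.033 to 0.14 (Lgals3) and -0.18 to 0.015 (Cd36). The difference of the smoke effect ranged from -0.12 to 0.17 for Gpnmb at 6 h. At 20 h it ranged from -0.38 to 0.31 (Gpnmb), -0.33 to 0.25 (Cd68), -0.15 to 0.035 (Adgre1, 0.0097 without the type B array of 300 µg/l at 2 h), -0.043 to 0.35 (Lpl) and -0.33 to 0.11 (Cd36). The causes were not tested. This difference could not be fitted without the sham condition of a time it compares, without 20 h or without the time term. No paired analysis was possible because the replicate numbers are the recovery times, already a term of the model. With 1 array per condition the number of arrays limits the precision, and Adgre1 and the later Ms4a7 signals are near or under the filter.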
